A study of Homo sapiens with 16 samples.

Results

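The transcripts of heat-shocked senescent cells were set against those of heat-shocked young cells. The cells were WI-38, an established line of human lung fibroblasts with a limited replicative lifespan. Senescent cells were at passage 36 and young cells at passage 24, and heat shock lasted 2 h at 44 °C, a temperature that the labels write as 440C and that is read here as 44 degrees. All cells, controls included, had been starved of serum and refed with complete medium before the day of the experiment, and nothing in the labels names a further agent or genotype. All genes of the RNA-seq table belonged to the comparison. It listed 23597 genes, and 13177 of them passed the filter on low counts and were tested. The comparison used 4 of the 16 libraries of the series, 2 senescent and 2 young. Senescent control and young control cells, with 2 RNA libraries each, and ribosome footprint libraries of the same heat-shocked states served to place it. The labels do not say whether 2 libraries of a group came from separate cultures, so p values rest on a spread between libraries that may be technical. Each state is 1 passage of 1 line, so senescence and passage cannot be told apart from other changes of that culture.

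Heat shock unfolds proteins and releases heat shock factor 1 (HSF1), which binds inverted repeats of the unit GAA in promoters and switches on genes for chaperones, the proteins that hold and refold others. Misfolded protein in the endoplasmic reticulum (ER) starts a separate program, the unfolded protein response, whose factors bind the ER stress element and raise ER chaperones. Senescence is a lasting exit from the cell cycle, enforced by inhibitors of cyclin-dependent kinases, in which fibroblasts change what they secrete. The promoters of HSPA1A, the main inducible HSP70 chaperone, and of HSPA5, the ER chaperone BiP, are shown because both transcripts were lower in heat-shocked senescent cells while each promoter holds a motif of a different program. The sequences are the 250 bases before the transcript start from RefSeq (GRCh38.p14), at chr6:31815293-31815542 on the plus strand for HSPA1A and chr9:125241344-125241593 on the minus strand for HSPA5, written 5′ to 3′. The capitals mark the match to GAANNTTC, an inverted pair of the units of a heat shock element, in HSPA1A, which starts 106 bases before the transcript start. In HSPA5 they mark the match to the full ER stress element, which starts 66 bases before the transcript start.
HSPA1A: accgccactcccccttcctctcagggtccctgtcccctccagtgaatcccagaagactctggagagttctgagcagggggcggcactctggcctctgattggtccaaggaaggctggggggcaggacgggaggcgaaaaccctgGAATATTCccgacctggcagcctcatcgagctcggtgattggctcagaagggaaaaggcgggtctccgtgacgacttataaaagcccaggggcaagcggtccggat
HSPA5: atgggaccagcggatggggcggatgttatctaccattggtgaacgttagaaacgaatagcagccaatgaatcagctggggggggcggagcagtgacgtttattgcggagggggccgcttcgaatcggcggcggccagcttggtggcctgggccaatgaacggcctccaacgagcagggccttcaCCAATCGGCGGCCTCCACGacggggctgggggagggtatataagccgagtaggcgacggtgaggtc

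Both strands were searched, and a further motif, TTCNNGAA, the other arrangement of heat shock units, can overlap GAANNTTC where units run on. Neither promoter held TTCNNGAA. Of 35116 RefSeq promoters of this length, 5.78% held GAANNTTC, 6.62% held TTCNNGAA and 0.0740% held the ER stress element. The promoters of HERPUD1 and CDKN1A, described below, held no exact match to the 3 motifs. Other or inexact forms of either element were not searched for and may be present in any promoter. A match is a description of the letters and not evidence of binding.

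The RNA libraries held 27710423 and 28062959 counts in heat-shocked senescent cells, against 33945923 and 26434514 in heat-shocked young cells. Over tested genes, the 2 libraries of a group correlated at 0.972 to 0.981 (Pearson, log2 scale). All 12 fibroblast markers were at 1 TPM, the deposited level scaled to transcript length, or more in every RNA library, and their summed level was 10506 and 15582 TPM in senescent cells against 11347 and 14033 TPM in young cells. THY1 was higher and FAP lower among them, and with the GC trend removed 1 of the 12 was higher and none lower. Markers of other cell types were mostly low, with 2 to 5 epithelial, 4 or 5 endothelial and 4 to 6 immune markers at 0 TPM in the heat-shocked libraries. Of 11 epithelial markers 7 or 8 were under 1 TPM, 7 of 8 endothelial markers and 8 of 9 blood and immune markers were under 1 TPM, and 2 of 6 smooth muscle and pericyte markers. The summed level of these 6 was 1546 and 1244 TPM in senescent cells against 1592 and 1136 TPM in young cells, and 2 were higher (median 0.38), CSPG4 (0.62 ± 0.13) and RGS5 (0.83 ± 0.22), against 1 with the GC trend removed. The summed epithelial level was 226 and 203 TPM in senescent cells against 148 and 146 TPM in young cells. KRT19 and KRT8 were called higher, against 1 epithelial marker with the GC trend removed. The summed immune level was 131 and 174 TPM against 118 and 178 TPM, and the summed endothelial level 15.1 and 15.6 TPM against 12.7 and 13.1 TPM. The part of such cells in the results was not tested. In these bulk samples, fewer cells of a type and less RNA per cell cannot be told apart.

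Same-numbered libraries deviated together, and the count of genes that differed rested on whether this was modelled. With replicate number as a block, 1070 transcripts were higher (8.12% of tested) and 741 lower (5.62%) in heat-shocked senescent than in heat-shocked young cells, 13.7% in all, at an adjusted p under 0.05 by edgeR's quasi-likelihood test with Benjamini-Hochberg adjustment. Without the block no transcript passed (0%). In that fit 1520 passed an unadjusted p of 0.05 (11.5%), the smallest adjusted p was 0.0756, and DESeq2 without the block called 245. The block fit has 3 residual degrees of freedom over 8 libraries, and its count fell to 105 without young heat shock replicate 1, 141 without young heat shock replicate 2, 964 without young control replicate 1 and 973 without young control replicate 2. Leaving out any 1 of the senescent libraries gave 1569 to 2007. The balance of directions also moved, with 893 higher and 1114 lower without senescent heat shock replicate 1 and 1160 higher and 1302 lower from the 4 heat-shocked libraries alone. Both senescent libraries were above both young ones for 1026 of the 1070 higher and below for 612 of the 741 lower transcripts, where 43.1% of all tested genes had groups that did not overlap. Of the called transcripts 251 were higher and 290 lower by more than 2-fold. The words higher and lower below refer to calls in the block fit. Its p values measure the spread left once replicate number is removed, over all 8 RNA libraries, controls included. List counts below are to be read against the shares of all tested genes, 8.12% higher and 5.62% lower. In another setting they are to be read against the count over all tested genes in that setting. Changes are log2 fold changes ± SE, senescent over young, with 2 libraries per group, and levels are CPM, counts scaled to library size with TMM factors. The SE is approximate, being derived from the test's F statistic.

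GC content moved with the comparison. The log2 fold change under heat correlated with the GC content of a gene's transcripts at 0.502 (Spearman, 13057 genes), and the median GC content was 59.4% for higher and 44.2% for lower transcripts, against 49.1% for all tested. Among the 2612 genes with the lowest GC content 0.766% were higher and 9.15% lower. Among the 2612 with the highest GC content 23.3% were higher and 1.19% lower. The correlation was 0.435 between control libraries of the 2 states, so it was present without heat. With each library's GC trend removed in the block fit, the correlation was 0.0108, and 369 transcripts were higher (2.8%) and 366 lower (2.78%), 5.58% in all. Of these, 309 of the 1070 and 287 of the 741 had been called before removal. GC content also moved with the replicate number. Level correlated with it at −0.101 to −3.44e-05 in replicate 1 and 0.0116 to 0.122 in replicate 2 libraries (Spearman), higher for replicate 2 within each RNA group. Its part in the shared deviations of same-numbered libraries was not tested. Whether GC content stands for RNA quality, library preparation or regulation was not tested, and counts of each group below are given with and without the trend.

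**Figure D1:**
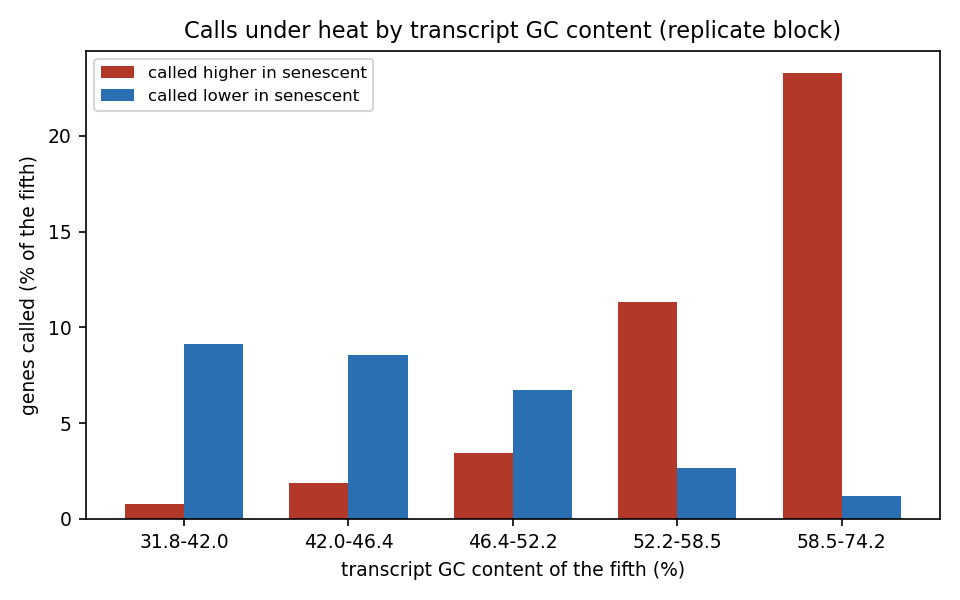
Share of tested genes called higher (red) and lower (blue) in heat-shocked senescent than in heat-shocked young cells, in percent of each of 5 equal bins of transcript GC content, from the fit with replicate number as a block. Higher calls run from 0.766% in the lowest to 23.3% in the highest bin, and lower calls from 9.15% to 1.19%.

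Cytosolic chaperones were the group with the largest share of lower transcripts of the lists examined. Of 47 tested heat shock proteins and co-chaperones 16 were lower and 2 higher, with a median of −0.39 against −0.05 for all genes. With the GC trend removed 15 were lower and none higher. Both senescent libraries were below both young libraries for 22 of the 47, against 21.3% of all tested genes. The count of lower members was 2 without young heat shock replicate 1 and 3 without young heat shock replicate 2, with medians of −0.37 and −0.39.

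Among the HSP70 chaperones, HSPA1A had 10406 and 14527 CPM in senescent cells, against 16978 and 22603 CPM in young cells (−0.67 ± 0.11, adjusted p = 0.0133). Its near-identical copy HSPA1B had 9804 and 15035 CPM in senescent cells, against 13813 and 18653 CPM in young cells (−0.40 ± 0.14, adjusted p = 0.0914), and reads of the 2 copies may have been split by the counting. HSPA1A kept the groups apart and HSPA1B did not. HSPA8, the constitutive HSP70, had 5939 and 5414 CPM against 7756 and 7230 CPM (−0.40 ± 0.11, adjusted p = 0.0462), and did not pass with the GC trend removed (adjusted p = 0.261). HSPA6, which is expressed almost only under stress, gave 2113 and 3089 CPM in senescent cells, against 2469 and 4137 CPM in young cells (−0.33 ± 0.13, adjusted p = 0.128). HSPA4L, HSPH1 and HSPA4 are HSP110-type proteins that exchange the nucleotide of HSP70, and all 3 were lower. HSPA4L had 34.1 and 9.68 CPM in senescent cells, against 143 and 34.8 CPM in young cells (−1.97 ± 0.32, adjusted p = 0.0134). HSPH1 had 1954 and 615 CPM against 3533 and 1504 CPM (−1.04 ± 0.23). Replicate 1 was the higher library of each state for both genes, and the HSPH1 groups overlapped, so this call rests on the comparison within a replicate number. HSPA4 gave −0.81 ± 0.12.

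Both cytosolic HSP90 genes and 4 of their co-chaperones were among the 16. The HSP90 co-chaperones PTGES3, FKBP5, CDC37 and UNC45A did not pass (−0.46, −0.50, 0.15 and 0.22 in that order), nor did the HSP70 co-chaperone ST13 (−0.39). HSP90AA1, the inducible HSP90, had 4519 and 1983 CPM in senescent cells, against 7594 and 3681 CPM in young cells (−0.82 ± 0.13, adjusted p = 0.0133), again with overlapping groups. HSP90AB1, the constitutive form, gave −0.63 ± 0.12. FKBP4, an immunophilin co-chaperone of HSP90, had 324 and 359 CPM in senescent cells, against 886 and 810 CPM in young cells (−1.31 ± 0.14, adjusted p = 0.00612). Its groups stood far apart, with the higher senescent library below the lower young one. STIP1, which links HSP70 to HSP90, AHSA1, which stimulates the HSP90 ATPase, and CHORDC1, another HSP90 co-chaperone, gave −0.80 ± 0.11, −0.78 ± 0.11 and −1.18 ± 0.25.

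J-domain proteins deliver substrates to HSP70. DNAJA4 showed the largest difference of the list, with 23.3 and 6.98 CPM in senescent cells, against 55.9 and 73.5 CPM in young cells (−2.23 ± 0.43, adjusted p = 0.0194). DNAJB1 had 4613 and 5123 CPM against 6598 and 8147 CPM (−0.59 ± 0.12), and DNAJA1 gave −0.73 ± 0.20. BAG3, an HSP70 partner that directs clients to autophagy, had 1863 and 1293 CPM in senescent cells, against 2920 and 3087 CPM in young cells (−0.94 ± 0.16, adjusted p = 0.0154). HSPB1, a small heat shock protein, had 1659 and 1920 CPM against 2332 and 2982 CPM (−0.56 ± 0.11). With the GC trend removed HSPA1B (adjusted p = 0.045) and HSPA6 (adjusted p = 0.0474) were among the members that newly passed as lower. Like HSPA8, HSPH1 (adjusted p = 0.0734), CHORDC1 (adjusted p = 0.0717) and DNAJA1 (adjusted p = 0.145) then did not pass. The 2 members that were higher were the small heat shock protein HSPB6 (0.61 ± 0.16) and STUB1, the ubiquitin ligase CHIP (0.64 ± 0.12).

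Of the 48 listed cytosolic chaperones, 40 had a RefSeq promoter. GAANNTTC was found in 16 of these, among them 9 lower members and 1 higher member, and TTCNNGAA in 10, among them 5 lower members and 1 higher member. The 16 included HSPA1B and HSPA6, which did not pass. CHORDC1, HSP90AA1, HSP90AB1 and HSPA8 held both motifs, so the 2 counts share members. Of all 47 tested members 16 were lower and 2 higher. Lower members among promoters without a match were not counted, and a link between motif and RNA level was not tested. None of the 40 promoters held the ER stress element.

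**Figure D2:**
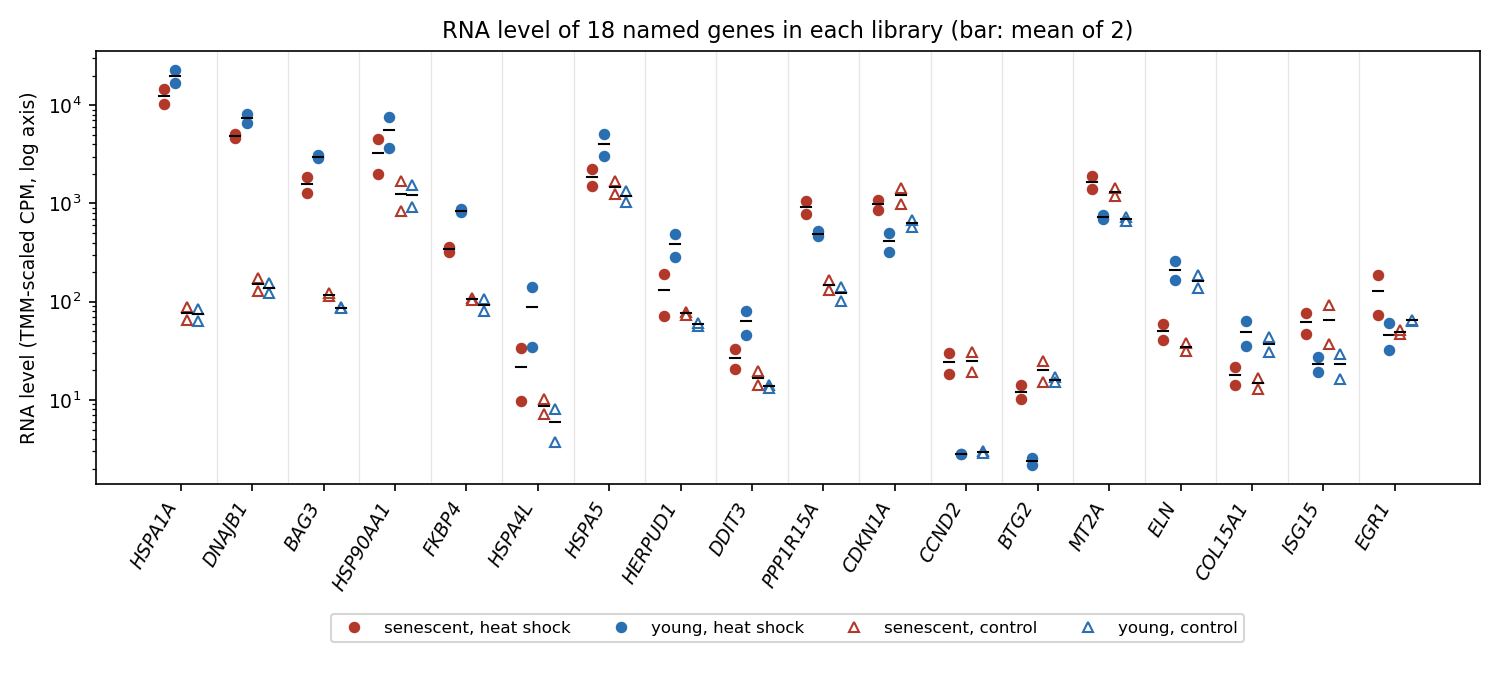
RNA level of 18 named genes in each library, as TMM-scaled CPM on a log axis. Filled circles are heat-shocked and open triangles control libraries, red for senescent and blue for young, and the bar is the mean of 2 libraries. FKBP4 in heat shock was at 324 and 359 CPM in senescent cells, below 886 and 810 CPM in young cells, and CCND2 stood higher in senescent cells in both conditions.

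In the ER, chaperones and genes of the unfolded protein response gave 8 lower and 1 higher of 40, with a median of −0.36. With the GC trend removed 5 were lower. Without young heat shock replicate 1 the count of lower members was 1, and without young heat shock replicate 2 it was 4. HSPA5 had 2221 and 1492 CPM in senescent cells, against 5046 and 3052 CPM in young cells (−1.11 ± 0.12, adjusted p = 0.00615). HERPUD1, a component of ER-associated degradation, had 190 and 71.1 CPM in senescent cells, against 485 and 282 CPM in young cells (−1.61 ± 0.32, adjusted p = 0.0211). The groups did not overlap for either gene. DNAJC3, a J-domain partner of BiP, gave −1.04 ± 0.25, HSPA13, an HSP70 relative of the ER, −0.81 ± 0.12, and MANF, a secreted factor induced by ER stress, −0.79 ± 0.14. DNAJC3 did not pass with the GC trend removed (adjusted p = 0.0885). XBP1, a transcription factor of the response, had 164 and 129 CPM in senescent cells, against 211 and 193 CPM in young cells (−0.46 ± 0.14, adjusted p = 0.0659). The higher member was EDEM2, which marks misfolded glycoproteins for degradation (0.56 ± 0.12). An exact match to the form of the ER stress element searched for was found in 8 of the 36 promoters available for the list. HSPA5 was the only lower member among these 8, and other forms of the element were not counted.

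The PERK-ATF4 arm, in which the kinase PERK slows translation and the factor ATF4 is made, gave 3 lower and 1 higher of 29, with a median of −0.13, and 2 lower and 1 higher with the GC trend removed. No member was lower without young heat shock replicate 1 or without senescent heat shock replicate 2. The lower ones were DDIT3, the stress factor CHOP, with 33.2 and 20.8 CPM in senescent cells against 79.9 and 46.2 CPM in young cells (−1.22 ± 0.28, adjusted p = 0.0283), CEBPG, a bZIP partner of ATF4 (−0.90 ± 0.24), and EIF2AK3, which codes for PERK itself (−0.78 ± 0.19). PPP1R15A went the other way. This subunit of the phosphatase that reverses PERK signalling had 786 and 1051 CPM in senescent cells, against 465 and 523 CPM in young cells (0.88 ± 0.12, adjusted p = 0.00814). ATF4 had 388 and 475 CPM against 530 and 550 CPM (−0.33 ± 0.12, adjusted p = 0.0929).

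Of 14 subunits of the chaperonin TRiC and of prefoldin 3 were lower and none higher (median −0.29), namely CCT6A (−0.61 ± 0.12), CCT2 (−0.54 ± 0.14) and TCP1 (−0.46 ± 0.12). None of the 14 passed with the GC trend removed or without either young heat shock library, each left out in turn. Of 16 mitochondrial chaperones and proteases 3 were lower and 1 higher (median 0.07). HSPD1, the chaperonin HSP60, had 912 and 467 CPM in senescent cells, against 2228 and 835 CPM in young cells (−1.08 ± 0.17, adjusted p = 0.0123), with overlapping groups. Its partner HSPE1 gave −0.71 ± 0.13 and GRPEL2, an exchange factor of mitochondrial HSP70, −0.78 ± 0.19, while TRAP1, the mitochondrial HSP90, was higher (0.42 ± 0.11). Only 1 lower member of this list, HSPD1, passed with the GC trend removed. None of the list was lower without young heat shock replicate 1 and 1 was without young heat shock replicate 2. None of 36 proteasome genes passed in either direction, with or without the GC trend (median −0.15). Of 26 ubiquitin and autophagy genes 2 were higher and 2 lower (median 0.12), shares near those of all tested genes, 8.12% and 5.62%. Only ZFAND2A passed with the GC trend removed, and without either young heat shock library none did. ZFAND2A, a heat-inducible regulator of the proteasome, had 81.2 and 43.3 CPM in senescent cells, against 154 and 122 CPM in young cells (−1.17 ± 0.22), and ATG5, which is needed to form autophagosomes, gave −0.59 ± 0.13. The autophagy receptor SQSTM1 (0.49 ± 0.11) and the ubiquitin-conjugating enzyme UBE2S (0.43 ± 0.11) were higher.

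**Figure D3:**
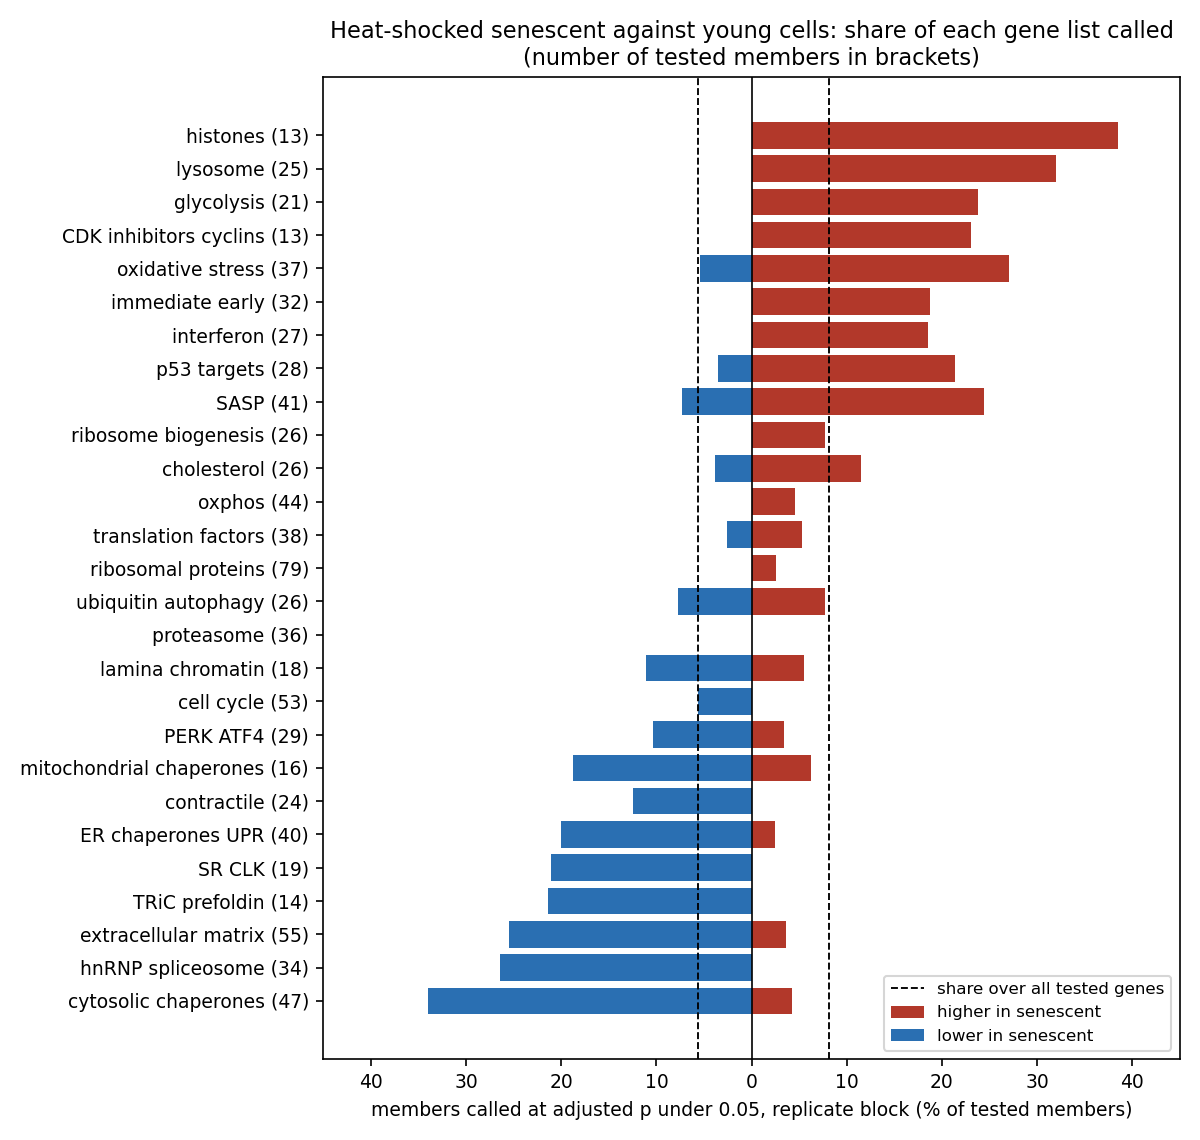
Share of the tested members of 27 gene lists called higher (red, right) or lower (blue, left) in heat-shocked senescent than in heat-shocked young cells, in percent, with the number of tested members in brackets. Dashed lines mark the shares over all tested genes, 8.12% higher and 5.62% lower. Cytosolic chaperones, with 16 of 47 lower, lie at the bottom and histone genes, with 5 of 13 higher, at the top.

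Of 13 kinase inhibitors and D-type cyclins 3 were higher and none lower in heat-shocked senescent cells (median 0.08), 1 of them an inhibitor. CDKN1A, the inhibitor p21, had 861 and 1097 CPM in senescent cells, against 318 and 507 CPM in young cells (1.27 ± 0.13, adjusted p = 0.00606). The others were the D-type cyclins CCND2 and CCND1, which drive entry into the cycle. Without either young heat shock library 2 of the 13 were higher. CCND2 had 30.2 and 18.4 CPM in senescent cells, against 2.82 and 2.84 CPM in young cells (3.08 ± 0.23, adjusted p = 0.00135). CCND1 had 2566 and 2324 CPM against 1245 and 1326 CPM (0.93 ± 0.12, adjusted p = 0.00782). All 3 also passed with the GC trend removed. The inhibitors CDKN2A and CDKN2B, both used as markers of senescence, did not pass. CDKN2A had 14.8 and 15.0 CPM in senescent cells, against 12.1 and 14.3 CPM in young cells (0.18 ± 0.18), with a negative value of −0.16 once the GC trend was removed. CDKN2B had 4.35 and 3.20 CPM against 4.92 and 3.13 CPM (−0.09 ± 0.26).

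Of 28 genes of p53 and its targets 6 were higher and 1 lower (median 0.23). With the GC trend removed 6 were again higher, but PLK3 and FDXR were not among them. Without young heat shock replicate 1 there were 2 and without young heat shock replicate 2 there were 3. BTG2, an antiproliferative gene, had 10.2 and 14.1 CPM in senescent cells, against 2.20 and 2.58 CPM in young cells (2.33 ± 0.25, adjusted p = 0.00612), with the lowest senescent library well above the highest young one. GDF15, a secreted stress cytokine, had 10.2 and 20.7 CPM against 3.03 and 8.81 CPM (1.45 ± 0.26), and the nuclease AEN had 48.1 and 63.4 CPM against 25.4 and 27.9 CPM (1.06 ± 0.15). The kinase PLK3 (0.77 ± 0.19) and the mitochondrial reductase FDXR (0.56 ± 0.15) were the remaining 2 higher members beside CDKN1A, and the kinase PLK2 was the lower one (−0.57 ± 0.12).

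Of 53 genes of DNA replication and mitosis 3 were lower and none higher, a share near that of all genes, with a median of −0.32. They were the spindle gene ASPM (−1.38 ± 0.28) and the replication factors MCM10 (−1.11 ± 0.25) and MCM6 (−0.75 ± 0.19), none of which passed with the GC trend removed. Without senescent heat shock replicate 1 there were 2 higher and 1 lower (median 0.07), without senescent heat shock replicate 2 there were 23 lower (median −0.78), and without either young heat shock library none passed. MKI67, the proliferation marker Ki-67, gave 10.6 and 40.9 CPM in senescent cells, against 21.2 and 39.5 CPM in young cells (−0.44 ± 0.32, adjusted p = 0.354). The senescent libraries differed from each other more than the groups did, and the mean log2 level of the list was 3.05 and 4.49 in senescent cells against 3.76 and 4.48 in young cells. Of 18 lamina and chromatin genes 2 were lower, UHRF1, a reader of methylated DNA (−0.98 ± 0.17), and the lamina-associated TMPO (−0.84 ± 0.14). HMGA2, an architectural chromatin protein, was higher with 732 and 610 CPM in senescent cells against 474 and 367 CPM in young cells (0.68 ± 0.11). After removal of the GC trend 3 of the 18 were lower and 1 higher. Without senescent heat shock replicate 2 there were 7 lower, and without either young heat shock library none passed. LMNB1, whose loss marks senescence, gave 4.01 and 12.7 CPM against 11.7 and 15.8 CPM (−0.84 ± 0.32, adjusted p = 0.107), and HMGB2 11.1 and 23.2 CPM against 24.5 and 26.3 CPM (−0.62 ± 0.23, adjusted p = 0.106).

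Clustered histone genes gave 5 higher and none lower of 13 tested, with a median of 1.05, and 4 higher with the GC trend removed. None passed without young heat shock replicate 1 and 1 without young heat shock replicate 2. HIST1H1C, a linker histone, had 52.6 and 29.3 CPM in senescent cells, against 18.8 and 10.4 CPM in young cells (1.49 ± 0.19, adjusted p = 0.00729). HIST1H2BK had 68.4 and 101 CPM against 36.0 and 37.5 CPM (1.20 ± 0.17). The others were HIST1H2AC (1.45 ± 0.25), HIST1H2BC (1.53 ± 0.32) and HIST1H2BD (0.67 ± 0.18). A further 9 listed histone genes were too low to be tested.

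Of 41 tested factors of the senescence-associated secretory phenotype, out of 51 listed, 10 were higher and 3 lower (median 0.08), and 10 and 2 with the GC trend removed. Without young heat shock replicate 1 there was 1 higher and without young heat shock replicate 2 there were 3, with none lower in either. Without senescent heat shock replicate 2 there were 7 higher and 8 lower. SERPINB2, an inhibitor of plasminogen activators, had 163 and 306 CPM in senescent cells, against 72.9 and 74.6 CPM in young cells (1.61 ± 0.27, adjusted p = 0.0146). PLAU, the urokinase itself, had 385 and 708 CPM against 171 and 324 CPM (1.15 ± 0.20). ANGPTL4, an inhibitor of lipoprotein lipase, had 8.55 and 8.19 CPM against 1.89 and 2.41 CPM (1.97 ± 0.33), and the cytokine LIF had 16.1 and 24.2 CPM against 7.06 and 9.49 CPM (1.28 ± 0.23). The protease MMP12 was called at 0.413 and 1.21 CPM against 0.0929 and 0.0424 CPM, levels of few counts. The lower members were the growth factor EREG (−1.44 ± 0.29), the activin subunit INHBA, with 133 and 52.7 CPM in senescent cells against 265 and 199 CPM in young cells (−1.40 ± 0.25), and VEGFC (−0.44 ± 0.11). The inflammatory cytokines IL6 (−0.45 ± 0.33) and CXCL8 (−0.44 ± 0.34) were at 1.62 to 5.82 CPM and did not pass.

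Interferon-stimulated genes gave 5 higher and none lower of 27, with a median of 0.36, and the same counts with the GC trend removed, where the median was 0.58. Both senescent libraries were above both young ones for 14 of the 27, against 21.7% of all tested genes. Without young heat shock replicate 1 there were 3 higher, and without young heat shock replicate 2 there was 1. ISG15, a ubiquitin-like modifier, had 46.4 and 76.9 CPM in senescent cells, against 19.1 and 27.2 CPM in young cells (1.38 ± 0.19, adjusted p = 0.00966). IFITM1, which blocks virus entry, had 9.86 and 22.3 CPM against 2.91 and 4.57 CPM (2.03 ± 0.21, adjusted p = 0.00606), and IFI6 had 20.3 and 47.3 CPM against 8.48 and 8.77 CPM (1.79 ± 0.37). In all 3 the second senescent library was the highest. IFIT3 gave 0.93 ± 0.21. CXCL11, a chemokine induced by interferon, had 10 and 7 counts in senescent cells and 0 in both young libraries, so it was at least 6.13-fold higher against a floor of 3 counts over the group.

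Of 55 collagens and other matrix genes 14 were lower and 2 higher (median −0.20), and 13 and 1 with the GC trend removed. Without young heat shock replicate 1 there were 8 lower, and without young heat shock replicate 2 there were 3. ELN, the elastin precursor, had 40.7 and 59.8 CPM in senescent cells, against 165 and 259 CPM in young cells (−2.07 ± 0.13, adjusted p = 7.49e-04). POSTN, periostin, had 26.0 and 36.1 CPM against 79.3 and 119 CPM (−1.67 ± 0.24, adjusted p = 0.0109). The groups of neither overlapped. Among collagens, COL5A3 had 6.19 and 4.16 CPM in senescent cells, against 15.9 and 32.6 CPM in young cells (−2.14 ± 0.42), COL14A1 gave −2.22 ± 0.31, and COL15A1 of basement membrane zones −1.46 ± 0.15. VCAN, a large proteoglycan, had 130 and 66.7 CPM against 267 and 239 CPM (−1.45 ± 0.19), and the matricellular THBS2 gave −1.06 ± 0.20. SERPINH1, the collagen chaperone HSP47, is also a heat shock gene and had 2339 and 1636 CPM in senescent cells, against 3749 and 3917 CPM in young cells (−0.95 ± 0.18, adjusted p = 0.0198). COL3A1, a main fibrillar collagen, did not pass, with 355 and 755 CPM against 602 and 1109 CPM (−0.65 ± 0.19, adjusted p = 0.0605). The higher members were EFEMP2, needed for elastic fibre assembly (0.74 ± 0.11), and the collagen-modifying enzyme PLOD1 (0.44 ± 0.11). Of 24 contractile and cytoskeletal genes 3 were lower and none higher (median −0.02), and 2 were lower with the GC trend removed. The count was 1 without young heat shock replicate 1 and 0 without young heat shock replicate 2. They were CYR61, a matricellular target of YAP and SRF, with 128 and 124 CPM in senescent cells against 273 and 288 CPM in young cells (−1.16 ± 0.15, adjusted p = 0.00808), the non-muscle myosin MYH10 (−0.93 ± 0.13) and tropomyosin TPM4 (−0.52 ± 0.11).

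Immediate early genes, which respond to stimuli within minutes, gave 6 higher and none lower of 32 (median 0.30), and 4 higher with the GC trend removed. There were none without young heat shock replicate 1 and 3 without young heat shock replicate 2. EGR1, a zinc finger factor, had 74.1 and 186 CPM in senescent cells, against 32.0 and 60.4 CPM in young cells (1.45 ± 0.29, adjusted p = 0.0212). DUSP2, a phosphatase of MAP kinases, had 13.4 and 13.0 CPM against 3.78 and 6.23 CPM (1.42 ± 0.25), and the AP-1 subunit JUNB had 8.89 and 18.3 CPM against 3.41 and 8.56 CPM (1.23 ± 0.16). The groups of all 3 did not overlap, though those of EGR1 and JUNB came close. JUN (0.72 ± 0.16), FOSL1 (0.61 ± 0.13) and DUSP6 (0.59 ± 0.14) were the others.

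Of 37 tested antioxidant genes, NRF2 targets and metallothioneins 10 were higher and 2 lower (median 0.21), and 7 and none with the GC trend removed. Without young heat shock replicate 1 there were 2 higher and without young heat shock replicate 2 there was 1. GPX3, a secreted glutathione peroxidase, had 20.2 and 24.1 CPM in senescent cells, against 4.43 and 5.85 CPM in young cells (2.12 ± 0.16, adjusted p = 0.00129). The metallothionein MT2A, which binds zinc and copper, had 1401 and 1902 CPM against 770 and 688 CPM (1.17 ± 0.17, adjusted p = 0.0104), and MT1X had 11.0 and 17.2 CPM against 6.87 and 6.18 CPM (1.09 ± 0.22). Metallothionein genes are close in sequence and their counts may have been split. FTL, the ferritin light chain, had 7887 and 8378 CPM in senescent cells, against 4579 and 4614 CPM in young cells (0.82 ± 0.11, adjusted p = 0.00835). The lower members were NFE2L2, which codes for NRF2 itself (−0.52 ± 0.13), and GPX8, a peroxidase of the ER (−0.50 ± 0.13).

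Of 25 lysosomal genes 8 were higher and none lower (median 0.21), but 2 with the GC trend removed and none without either young heat shock library. GLB1, the source of senescence-associated beta-galactosidase, had 129 and 154 CPM in senescent cells, against 88.6 and 107 CPM in young cells (0.53 ± 0.11, adjusted p = 0.0229; 0.0358 with the GC trend removed). GAA, which degrades glycogen, gave 0.89 ± 0.12, the channel MCOLN1 0.75 ± 0.13, and the proteases and glycosidases CTSD and MAN2B1 both 0.66, with SE of 0.12 and 0.11. Glycolytic genes gave 5 higher and none lower of 21 (median 0.32), and 3 higher with the GC trend removed. There were 14 without senescent heat shock replicate 1 and none without either young heat shock library. SLC2A1, the glucose transporter GLUT1, had 277 and 309 CPM in senescent cells, against 149 and 173 CPM in young cells (0.87 ± 0.13, adjusted p = 0.0111). PFKFB4, which sets fructose bisphosphate levels, gave 0.96 ± 0.16, ALDOA, aldolase, 0.68 ± 0.13, PDK1, a brake on pyruvate use, 0.56 ± 0.15, and PFKL, phosphofructokinase, 0.54 ± 0.11. Of 26 cholesterol and SREBP genes 3 were higher and 1 lower (median 0.10), none of them with the GC trend removed or without either young heat shock library. They were the sterol reductases TM7SF2 (1.00 ± 0.21) and DHCR7 (0.53 ± 0.14), the regulator SREBF1 (0.65 ± 0.14) and, lower, the desaturase SCD (−0.72 ± 0.16).

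Splicing genes were lower in part. Of 34 hnRNP and core spliceosome genes 9 were lower and none higher (median −0.26), but 2 with the GC trend removed and none without either young heat shock library. HNRNPA2B1 had 386 and 299 CPM in senescent cells, against 692 and 485 CPM in young cells (−0.77 ± 0.12, adjusted p = 0.0134), and HNRNPA3, HNRNPH1 and HNRNPM gave −0.65 ± 0.11, −0.72 ± 0.15 and −0.66 ± 0.15. Of 19 SR factors and their kinases 4 were lower and none higher (median −0.33), but 2 with the GC trend removed, 1 without young heat shock replicate 1 and none without young heat shock replicate 2. CLK1, a kinase of SR proteins, had 74.2 and 33.2 CPM in senescent cells, against 140 and 72.2 CPM in young cells (−1.02 ± 0.15, adjusted p = 0.0117), with overlapping groups. The splicing regulators TRA2B (−0.71 ± 0.11), TRA2A (−0.55 ± 0.14) and SRSF10 (−0.49 ± 0.13) were the others. In translation and respiration few genes passed. Of 38 translation factors 2 were higher, EEF2 (0.56 ± 0.12) and EIF6 (0.42 ± 0.11), and EIF5 was lower (−0.53 ± 0.12), with a median of −0.03. Of 26 ribosome biogenesis factors BOP1 and RRP12 were higher (0.61 ± 0.11 and 0.57 ± 0.14; median −0.15), and of 44 oxidative phosphorylation subunits ATP5D and CYC1 (0.52 ± 0.13 and 0.49 ± 0.12; median 0.01). With the GC trend removed no member of these 3 lists passed but 2 other biogenesis factors, RRS1 and UBTF, which were lower, and without either young heat shock library no member passed.

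Outside these lists, the largest rises among transcripts of at least 10 CPM were led by CST1, a secreted cystatin, with 7.50 and 36.2 CPM in senescent cells against 0.774 and 0.762 CPM in young cells (4.46 ± 0.57, adjusted p = 0.00804). The senescent libraries differed from each other several-fold and both lay far above the young ones. GDF6, a BMP-family ligand, had 8.89 and 14.8 CPM against 1.30 and 1.65 CPM (2.96 ± 0.19), and the protease ADAMTS19 had 24.7 and 18.7 CPM against 3.50 and 2.20 CPM (2.93 ± 0.18), both with adjusted p = 7.49e-04. The methyltransferase INMT gave 2.49 ± 0.28, the complement factor C7 2.62 ± 0.65 and CD4, a surface protein best known from T cells, 2.14 ± 0.25, with 98.2 and 185 CPM against 28.6 and 32.5 CPM. TRPV2, named after its values were seen and a cation channel that in rodents opens at noxious heat, had 111 and 162 CPM in senescent cells, against 31.6 and 42.0 CPM in young cells (1.88 ± 0.13, adjusted p = 7.80e-04). The largest falls included NFKBIZ, a nuclear IκB protein, with 10.6 and 1.54 CPM in senescent cells against 64.0 and 11.1 CPM in young cells (−2.61 ± 0.40, adjusted p = 0.0123), and SESN3, a sestrin, with 8.03 and 0.540 CPM against 28.5 and 8.98 CPM (−2.37 ± 0.54). In both, replicate 1 was several-fold above replicate 2 in each state. The adhesion receptor ADGRL2 gave −2.23 ± 0.49, the proteoglycan SPOCK1 −2.20 ± 0.36, and KCNJ8 and ABCC9, which form a potassium channel together, −2.05 ± 0.22 and −2.07 ± 0.25. KCNJ8 had 6.90 and 3.62 CPM in senescent cells, against 27.2 and 15.8 CPM in young cells, and ABCC9 3.79 and 1.29 CPM against 12.9 and 7.50 CPM.

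Whether these differences were already there without heat was asked with the control libraries. The heat contrast compares other libraries, but both contrasts come from 1 fit and share its dispersion and block terms, so their calls are not independent. In control cells 283 transcripts were higher (2.15%) and 207 lower (1.57%) in senescent than in young cells with the block, 3.72% in all, and 5 passed without it. Of the higher ones under heat 247 were also higher in controls, 23.1% of the heat list and 87.3% of the control list, and of the lower ones 136, 18.4% and 65.7%. Counting sign alone, 98.2% of the higher and 91.2% of the lower transcripts had the same sign in controls, against 77.1% of all tested genes. Over all tested genes the 2 differences correlated at 0.623 (Pearson) and 0.691 (Spearman), where genes are not replicates and GC content moved with both. CCND2, GPX3, ELN and POSTN differed alike in both conditions, with control values of 3.04 ± 0.23, 1.98 ± 0.15, −2.19 ± 0.13 and −1.73 ± 0.24. For the chaperones, in controls 1 of the 47 was higher and none lower, with a median of 0.05, and of the 40 ER genes 1 was lower, with a median of 0.04. FKBP4 had 108 and 104 CPM in senescent controls, against 106 and 81.1 CPM in young controls (0.19 ± 0.14), and HSPA5 had 1703 and 1249 CPM against 1326 and 1036 CPM (0.31 ± 0.12). BTG2 had 15.1 and 25.2 CPM in senescent controls, against 17.0 and 15.1 CPM in young controls (0.27 ± 0.22). Of the 53 cell cycle genes 3 were lower under heat (median −0.32) and 9 in controls (median −0.79). Calls in controls were also found in other lists. Of 13 histone genes 5 were higher in controls (median 1.62, against 1.05 under heat). Of 27 interferon-stimulated genes 4 were higher (median 0.55, against 0.36 under heat). Of 55 matrix genes 10 were lower and 1 higher, and of 41 secretory factors 6 were higher and 1 lower. Of 37 antioxidant genes, NRF2 targets and metallothioneins 5 were higher. In the glycolytic, hnRNP and SR lists no member was called in controls.

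The test of the difference itself, heat shock against control, called almost nothing. With the block 1 of 13177 transcripts passed (0.00759%), SULT1A4, and without it none, with 119 at an unadjusted p under 0.05 and 3 called by DESeq2. The difference was −1.50 ± 0.20 for FKBP4, −1.43 ± 0.18 for HSPA5 (adjusted p = 0.175 for each) and −1.38 ± 0.23 for BAG3 (adjusted p = 0.387). It was −2.64 ± 0.46 for HSPA4L (adjusted p = 0.434), 2.06 ± 0.33 for BTG2 (adjusted p = 0.387) and −0.71 ± 0.15 for HSPA1A (adjusted p = 0.773). Of the 47 chaperones 37 had a difference below 0 (median −0.31), of the 40 ER genes 34 (median −0.34) and of the 53 cell cycle genes 2 (median 0.46), against 6693 of all 13177 (median −0.01). These medians carry no test.

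**Figure D4:**
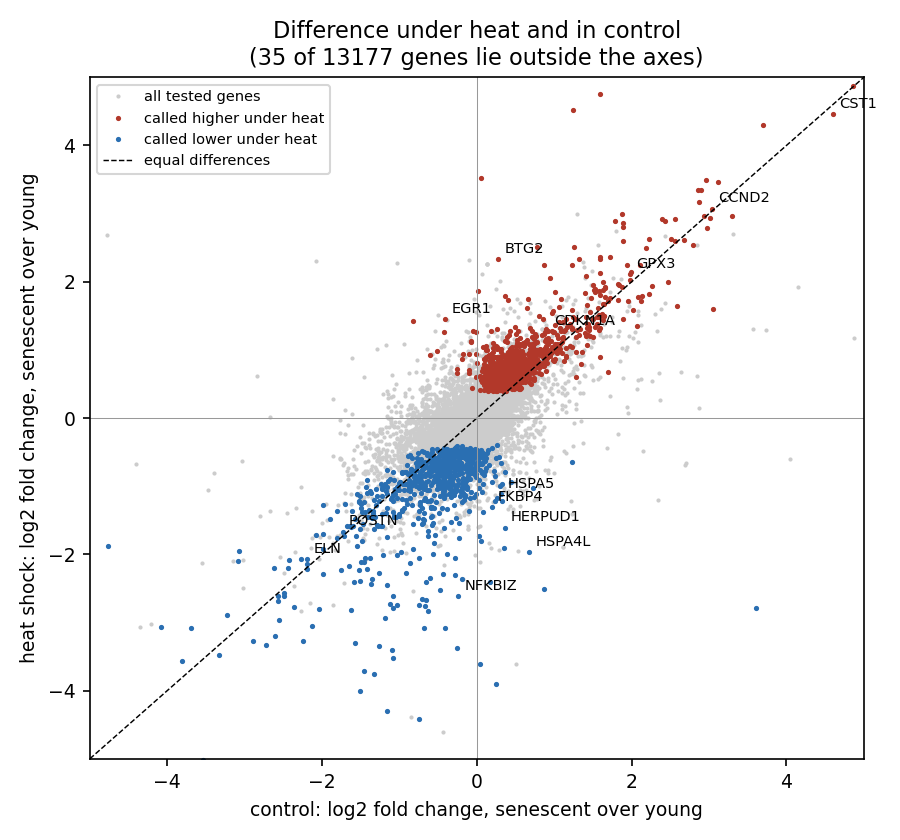
Log2 fold change of senescent over young cells in control libraries (x axis) and in heat-shocked libraries (y axis) for all tested genes, from the fit with replicate number as a block. Red and blue points are called higher and lower under heat, and the dashed line marks equal differences. CCND2 and ELN lie on the line, while HSPA5, FKBP4 and HERPUD1 lie below it and BTG2 above. 35 genes lie outside the axes.

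SULT1A4 had 0 counts in both heat-shocked senescent libraries and 388 and 156 in heat-shocked young ones, at least 167-fold lower against a floor of 3 counts over the group. This gene and SULT1A3 are near-identical copies, and SULT1A3 had 6.68 and 5.86 CPM in heat-shocked senescent cells, against 1.27 and 0 CPM in heat-shocked young cells. SULT1A3 was at 0 in all control libraries, in which SULT1A4 had 6.29 to 10.1 CPM. Summed over both copies the level was 6.27 ± 0.58 CPM in heat-shocked senescent and 9.94 ± 4.72 CPM in heat-shocked young cells (SD, n = 2), a difference within the spread. The call for SULT1A4 is therefore uncertain. RNA45S5, the precursor of ribosomal RNA, had 63.6 and 81.9 CPM in heat-shocked senescent cells, against 108 and 117 CPM in heat-shocked young cells (−0.64 ± 0.14), while controls had 2.96 and 3.61 CPM in senescent and 1.09 and 1.76 CPM in young cells (1.23 ± 0.19, adjusted p = 0.0182). It and the pseudogene ROCK1P1, at 0.263 and 0 CPM against 1.36 and 0.296 CPM, were the 2 transcripts lower under heat and higher in controls.

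Ribosome footprints of the same states, from other libraries, gave a second view of the same genes. Of 11288 genes tested without a block, 1 was lower (0.00886%) and none higher, and it was ELN, with 22.9 and 24.2 CPM in senescent cells against 139 and 103 CPM in young cells (−2.36 ± 0.24, adjusted p = 0.0492). Of the transcripts that were higher 672 of 992 measured (67.7%) had footprints of the same sign, and of those lower 528 of 630 (83.8%), against 59.2% of all genes measured in both. COL5A3 (−3.79 ± 0.54), COL15A1 (−1.51 ± 0.22), COL3A1 (−1.40 ± 0.17) and INHBA (−1.11 ± 0.20) had lower footprint values, and MT1X (3.88 ± 0.48), SERPINB2 (2.51 ± 0.45) and CCND2 (1.97 ± 0.39) higher ones, with adjusted p of 0.061 to 0.192. Among chaperones, FKBP4 footprints had 313 and 239 CPM in senescent cells, against 612 and 593 CPM in young cells (−1.13 ± 0.20), and BAG3 gave −0.94 ± 0.25 and DNAJB1 −0.69 ± 0.28, near their RNA values. HSPA5 footprints had 6117 and 5643 CPM against 6541 and 4863 CPM (0.04 ± 0.20). HSPA1A gave −0.01 ± 0.39, HSPA8 0.19 ± 0.23 and HSP90AA1 −0.24 ± 0.31. None of these chaperones passed in footprints, FKBP4, BAG3 and DNAJB1 included. Over the 47 chaperones the footprint median was −0.12 against −0.39 in RNA. Whether RNA and footprints differ was not tested. Leaving out a library gave 0 to 494 calls in footprints, with 494 without senescent heat shock footprint replicate 1. With a replicate block 8 genes were higher (0.0709%) and 10 lower (0.0886%) in footprints.

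**Figure D5:**
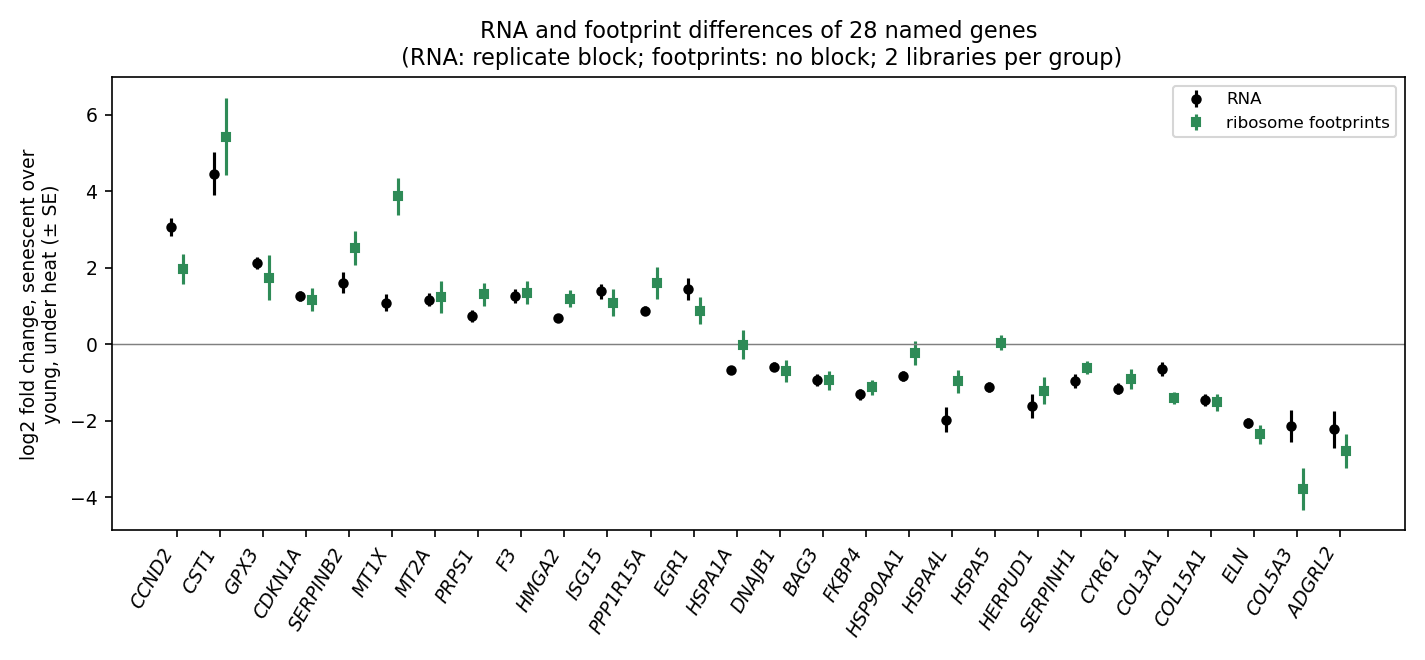
Log2 fold change of heat-shocked senescent over heat-shocked young cells for 28 named genes, in RNA (black circles) and ribosome footprints (green squares), with approximate SE bars and 2 libraries per group. HSPA5 and HSPA1A lie below 0 in RNA and near 0 in footprints, and ELN lies at −2.07 in RNA and −2.36 in footprints.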

How the data were processed

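RNA-seq and ribosome footprint libraries of WI-38 cells were deposited as gene-level values. The deposited tables hold expected counts, whole numbers as deposited, and TPM values made by the authors. Per the submitters' processing notes, STAR, RSEM and Bowtie2 were used with hg19, without roles, versions or settings. Members and gene lists were chosen with earlier results of these data known.

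Expected counts of the 8 RNA libraries, 2 in each of 4 groups, passed filterByExpr and TMM scaling before edgeR's quasi-likelihood test was run (edgeR 4.0.16, R 4.3.3) with Benjamini-Hochberg adjustment at 0.05, with and without replicate number as a block, with 3 and 4 residual degrees of freedom. Labels give a replicate number but not what it marks. The replicate 1 minus replicate 2 deviations correlated at 0.499 to 0.685 over all pairs of RNA groups, so numbers were used as a block for RNA. A GC shift shared by same-numbered libraries may enter these correlations, and whether cultures were paired is not known. Footprint correlations were −0.0299 to 0.275, so footprints were tested without a block. GC content came from GENCODE transcripts matched by symbol (99.1% of tested genes), and each library's trend was removed by lowess (span 0.3, prior count 2). Depth was 26434514 to 37126871 counts per RNA library. Promoters came from RefSeq (GRCh38.p14), a build other than that of the files, and no coordinate was carried between builds. Genes named are up to 12 largest rises and 12 largest falls of at least 10 CPM with 1 direction within both replicate numbers, up to 4 called members of each list, or the 2 most abundant where none was called, and fixed panels of heat shock and senescence genes. AHSA1, STIP1, HSPA4, HSP90AB1, SERPINH1, MANF and others outside that rule were named after their values were seen. Alternatives were other scaling, no filter, DESeq2 1.42.0, limma 3.58.1 on log2(TPM + 1), GC trend removal and leaving out each library. The fits were also run on counts simulated from the block fit itself, so that run cannot show whether the block suits these libraries. The calls of 1 gene list are not reported here.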

Additional observations from a re-analysis of the deposited data

Results flagged for a closer look

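SULT1A4 was the 1 transcript whose difference between senescent and young cells changed between heat shock and control in the test of that change (adjusted p = 0.00306, edgeR with the block), and its counts move against those of its near-identical copy. For 11 other named genes both libraries of each state stood on opposite sides under heat and in controls. Only the 163 named genes were searched, and the share over all tested genes was not counted. Of the 163, 151 had been called under heat in the block fit, so the choice favoured groups that lie apart under heat. The count of 11 therefore has no background to be read against. Under heat alone, 43.1% of all tested genes had groups that did not overlap. Both senescent libraries were below both young ones under heat and above them in controls for the transcription factor ATF4 (−0.33, log2 under heat), the co-chaperone BAG3 (−0.94), HERPUD1 (−1.61), HSPA8 (−0.40), HSPB1 (−0.56), MANF (−0.79), the rRNA precursor RNA45S5 (−0.64), XBP1 (−0.46) and ZFAND2A (−1.17). The opposite held for DUSP2 (1.42) and EGR1 (1.45). ATF4 and XBP1 were not called under heat. The change itself did not pass for any of the 11, with adjusted p between 0.175 and 0.927.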

How the results depend on the processing

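The calls under heat rest on the replicate block. With it 1811 transcripts passed and without it 0. From the fit without a block the count was 110 with no filter on low counts, 245 with DESeq2, 6 with limma on TPM, 24 with the GC trend removed and 735 with both GC removal and the block. From the block fit it was 2496 with DESeq2, 2462 with the 4 libraries alone (1160 higher, 1302 lower), 781 with limma on TPM (364 higher, 417 lower) and 735 with the GC trend removed, and 105 to 2007 with 1 library left out. In controls 5 passed without the block, 0 with scaling by library size, 74 with no filter, 144 with DESeq2, 3 with limma, 490 with the block, 20 with the GC trend removed, 326 with both, and 0 to 0 with 1 library left out. For the difference between heat and control the counts were 2 with no filter, 3 with DESeq2, 2 with limma and 1 with the block. In footprints, where 1 passed, the count was 0 with relative log expression scaling, 112 with no filter, 143 with DESeq2, 0 with limma, 18 with the replicate block (8 higher, 10 lower), 0 with the 4 libraries alone and 0 to 494 with 1 library left out. CDKN2A was −0.16 with the GC trend removed. With 1 library left out, log2 values of genes that did not pass ran from −0.988 to 0.0956 for IL6, −1.22 to 0.167 for CXCL8, −0.345 to 0.215 for CDKN2B and −0.00716 to 0.363 for CDKN2A. The cause of these changes was not tested. Groups of 2 libraries limit every comparison.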
